A study of Mus musculus with 45 samples.

Results

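The first 8 h of culture after day 2 without retinoic acid (RA) were examined in organoids of R1 mouse embryonic stem (ES) cells. The members are 6 of the 45 libraries of the series, identified by their labels, namely the 3 untreated libraries collected 8 h after day 2 and the 3 libraries of day 2. All genes of the count table were compared between them. R1 is an established ES cell line of WT genotype (wild type), and it was grown clonally in Matrigel, a basement membrane extract, in N2B27, a serum-free medium in which mouse ES cells leave the pluripotent state and turn to a neural fate. At day 2 the medium was replaced with N2B27 alone or with N2B27 holding all-trans RA, so the untreated organoids at 8 h had received fresh medium and time and medium change cannot be told apart. For reference, 3 untreated libraries at 18 h and 3 RA-treated libraries each at 8 h and 18 h were used. The RA dose was 250 nM in the study's methods, while the labels write the same number in µM and list no 8 h collection among their times. RNA was taken from whole organoids freed from the gel, so fewer cells of a type and less RNA per cell cannot be told apart.

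Retinoic acid is made from vitamin A by retinaldehyde dehydrogenases, is broken down by enzymes of the Cyp26 family, and acts through nuclear receptors that sit on DNA as dimers. In the embryo it patterns the hindbrain and spinal cord, and its direct targets include the 3′ genes of the Hox clusters, its own receptor Rarb and its own breakdown enzyme Cyp26a1. ES cells that leave naive pluripotency switch off factors such as Klf4, Esrrb and Tfcp2l1, pass through a formative state with Otx2, Fgf5 and Pou3f1, and only then switch on neural plate genes such as Sox1.

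Total counts ran from 21896134 to 26273480 in the day 2 libraries and from 19087115 to 22199958 at 8 h. At this depth 3 counts, the least amount taken as detected, correspond to 0.124 to 0.165 CPM (counts scaled to a common library size after TMM normalisation), a floor for counting error only. The first principal component held 50.5% of the variance and separated day 2 from 8 h, while the second, with 17.6%, set day 2 replicate 3 apart from the other 5 libraries. That library carries a library number of a later series than the other 5, and it is therefore shown apart in the plots and left out in an alternative fit. The labels call the samples neural tube organoids. Of the neural plate markers, Hes5 was at 0.083 to 0.289 CPM over the 6 libraries, Zic1 at 0.55 to 1.4 CPM and Sox1 at 1.15 to 2.53 CPM. Pax6 was at 15.8 to 18.6 CPM, Sox3 at 20.1 to 33.1 CPM and Nes at 28.2 to 39.5 CPM. Their summed level was between 70.7 and 76.4 CPM at day 2 and between 86.9 and 94.4 CPM at 8 h. The pluripotency factor Pou5f1 was at 799 to 1070 CPM. Markers of mesoderm, endoderm, trophoblast, fibroblast feeder and 2-cell-like cells had summed levels between 2.19 and 20.1 CPM, and Mesp1, Plac1, Lum, Postn and Tcstv3 were at 0 in at least 1 library. The summed fibroblast feeder markers went from between 14.5 and 15.3 CPM at day 2 to between 9.44 and 12.7 CPM at 8 h through Thy1 (log2 fold change -0.53), while 6 of the 7 tested genes of the longer feeder list were above 0 with a median of 0.36. The streak and mesoderm markers went from between 17.9 and 20.1 CPM to between 13.2 and 17.3 CPM. Their part in the results was not tested.

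Of 15634 genes tested with edgeR's quasi-likelihood test, 64 (0.409%) were called higher and 28 (0.179%) lower at 8 h. A call needed an adjusted p (Benjamini-Hochberg) below 0.01 together with a change of more than 1 on the log2 scale, the thresholds of the study. At an adjusted p under 0.05 with no minimum fold, 1270 genes (8.12%) rose and 1251 (8%) fell, and genes that met this second rule are written here as having passed. Counts of list members that passed are to be read against these shares. The median log2 fold change over all genes was 0.0027. All called genes were higher in every library of 1 group than in every library of the other, as were 14.9% of all tested genes upward and 18.7% downward. The number called rested on single libraries to some degree, since without untreated 8 h replicate 1 it was 38 up and 12 down, and without day 2 replicate 1 it was 54 up and 16 down. Without day 2 replicate 3, which leaves the earlier library series alone, 88 genes were called up and 31 down, and 50 of the 64 and 26 of the 28 were among them. In a test against a log2 fold change of 1 itself 3 genes were called up, Prtg and Greb1l among them. A gene low in 1 group could enter the test through the other group alone. This held for 14 of the 64 (Csn3, Rarb, Hotairm1, Hoxb2, Hoxa3 and Mmp9 among them) and 4 of the 28. Of all 15634 tested genes, 516 could enter through the 8 h libraries alone and 375 through those of day 2 alone.

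**Figure D1:**
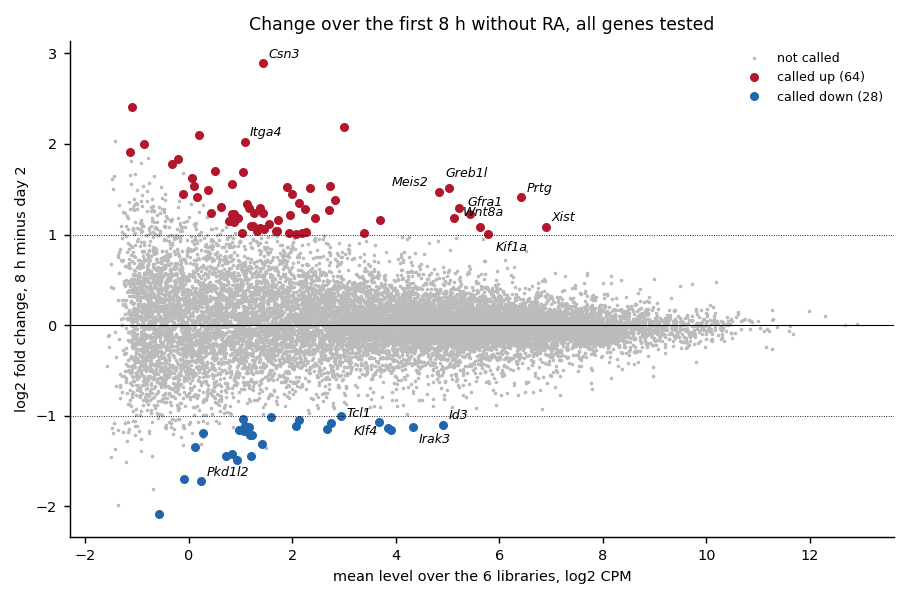
Log2 fold change from day 2 to 8 h (y axis) against the mean level over the 6 libraries in log2 CPM (x axis) for all 15634 genes tested. Red points are the 64 genes called up, blue points the 28 called down, grey points the rest, and dotted lines mark a log2 fold change of 1 and -1. The called rises reach from low levels (Csn3) to Prtg and Xist, and the falls lie at lower levels than these.

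Genes of the RA pathway were among the called rises. Of the 20 genes on the list, 17 were tested, 6 were called up (against 0.409% of all genes), and none was called down. Among them were the Hox gene Hoxb1, the receptor gene Rarb, Dhrs3 (which reduces retinaldehyde back to retinol), Cyp26a1 and the RA-induced germ cell gene Stra8. At the second rule 8 of the 17 (47.1%, against 8.12% of all genes) passed as higher and 1 (5.88%, against 8%) as lower. The median log2 fold change was 0.48. With no filter on low counts all 20 could be tested and 10 passed as higher. Of the list, 2 genes (Rarb and Cyp26b1) could enter the filtered test through their 8 h reads alone. The counts therefore describe the tested genes only.

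Hoxb1, a regulator of hindbrain segments (GRCm38 chromosome 11, 96365752 to 96368256, plus strand), had 1.99, 2.3 and 2.24 CPM at day 2 and 5.6, 5.86 and 6.11 CPM at 8 h, a log2 fold change of 1.45 ± 0.16 (SE, n = 3 per group, edgeR adjusted p = 2.4e-05). Within each of the groups its libraries lay close together.

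Cyp26a1, which breaks down RA (chromosome 19, 37697798 to 37701536, plus strand), had 2.20, 1.90 and 1.74 CPM at day 2 and 5.16, 5.57 and 5.82 CPM at 8 h. It rose by 1.52 ± 0.17 on the log2 scale (adjusted p = 2.7e-05), with day 2 replicate 3 the lowest. Stra8 (chromosome 6, 34920163 to 34939344, plus strand) had 3.98, 4.15 and 3.82 CPM at day 2 and 10.3, 9.29 and 11.1 CPM at 8 h, a log2 fold change of 1.38 ± 0.12 (adjusted p = 3.9e-06). Dhrs3 (chromosome 4, 144892827 to 144928209, plus strand) had 0.829, 0.5 and 0.664 CPM at day 2 and 2.63, 1.54 and 2.36 CPM at 8 h, a log2 fold change of 1.71 ± 0.31 (adjusted p = 0.0015). Both genes stayed below their 8 h range in every day 2 library.

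Rarb, a receptor gene that RA itself raises (chromosome 14, 16430839 to 16819156, minus strand), had 0.580, 0.200 and 0.291 CPM at day 2 and 1.54, 1.24 and 0.962 CPM at 8 h. Its log2 fold change of 1.77 ± 0.40 (adjusted p = 0.0073) rested on few reads, and the adjusted p reached 0.048 without untreated 8 h replicate 1. The receptor genes Rara and Rarg, which need no RA to be expressed, had log2 fold changes of -0.18 ± 0.07 (adjusted p = 0.0755) and -0.16 ± 0.06 (adjusted p = 0.0979). The RA carrier Crabp1 went from 11.8, 12.1 and 16.4 CPM to 9.77, 10.5 and 9.14 CPM (log2 fold change -0.44 ± 0.13, adjusted p = 0.034). The high day 2 value of Crabp1 is that of replicate 3, and without this library no gene of the list passed as lower. The corepressor Nrip1 also passed as higher, and Aldh1a2, which makes RA, had a log2 fold change of -0.22 (adjusted p = 0.423).

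RA receptor dimers bind direct repeats of a half-site of 6 bases, with a spacer of 5 bases in the best known elements. The 250 bases before the annotated starts were searched on both strands for 2 half-sites of the form AGGTCA, its variant AGTTCA, or the related forms GGGTCA and also GGTTCA, in the same orientation with 5 bases between them, in the RefSeq promoter windows of GRCm38.p6. Windows were held for 47 of the 64 genes called up, and Rarb and Cyp26a1 were the genes among them with a match. Over all 32851 windows 0.0883% held a match, and of the 20 called-down genes with a window none did. A gene can have several annotated starts, with 59 windows for the 47 genes. These promoters are shown because both genes rose and hold the repeat close to an annotated start, with the half-sites in capitals. The Rarb stretch is chr14:16575477-16575726, minus strand, and the repeat lies 53 to 37 bases before that start in the direction of the gene. That start lies inside the gene, whose outer end on the minus strand is 16819156. The Cyp26a1 stretch is chr19:37697558-37697807, plus strand, and the repeat lies 32 to 16 bases before the start on the opposite strand.
Rarb: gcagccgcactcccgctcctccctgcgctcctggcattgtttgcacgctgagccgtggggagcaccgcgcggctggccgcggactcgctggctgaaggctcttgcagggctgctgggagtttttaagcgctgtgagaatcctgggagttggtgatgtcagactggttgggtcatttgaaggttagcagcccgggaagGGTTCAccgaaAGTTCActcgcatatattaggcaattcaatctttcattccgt
Cyp26a1: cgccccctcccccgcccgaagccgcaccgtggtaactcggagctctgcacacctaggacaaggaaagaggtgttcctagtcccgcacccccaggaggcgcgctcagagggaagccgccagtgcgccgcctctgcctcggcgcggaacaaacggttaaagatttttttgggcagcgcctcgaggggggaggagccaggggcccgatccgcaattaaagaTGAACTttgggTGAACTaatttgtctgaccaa
A match describes the letters of a window only.

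Other genes of the Hox clusters rose as well. Hotairm1, a non-coding RNA of the Hoxa cluster, had 0.497, 0.350 and 0.457 CPM at day 2 and 1.43, 2.29 and 1.88 CPM at 8 h (log2 fold change 2.1 ± 0.32, adjusted p = 0.00045). Its exons overlap a gene on the opposite strand, and since the strand setting of the counting is not given in the sources used here, its count may include reads of that gene. Hoxb2 and Hoxa3 also overlap genes on the opposite strand, with the same limit. Hotairm1, Hoxb2 and Hoxa3 could each enter the test through their 8 h reads alone. Hoxb2 had 0.456, 0.899 and 1.37 CPM at day 2 and 2.80, 2.38 and 2.79 CPM at 8 h (log2 fold change 1.56 ± 0.31, adjusted p = 0.0028), and Hoxa3 rose by 1.54 ± 0.34 (adjusted p = 0.0069). For both, day 2 replicate 3 was the highest of the day 2 libraries, though still below every 8 h library. Of all 39 Hox genes, a list added after the values were seen, 28 were too low to be tested, and of the 11 others 4 were called (against 0.409% of all genes) and 8 passed as higher (against 8.12%). Between 5 and 7 passed when a library was left out. The tested ones entered through their 8 h reads in part, so these counts describe them only.

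The cofactor Meis2, which binds DNA together with Hox proteins, had 16.6, 16.3 and 12.8 CPM at day 2 and 38.6, 41.1 and 45.0 CPM at 8 h (log2 fold change 1.47 ± 0.09, adjusted p = 2.6e-07). Greb1l had 18.1, 17.3 and 16.3 CPM at day 2 and 50.8, 49.7 and 44.5 CPM at 8 h (log2 fold change 1.51 ± 0.08, adjusted p = 2.7e-08). Neither gene is on a list, and both are named as called genes after their values were seen. Both stayed called whichever library was left out.

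**Figure D2:**
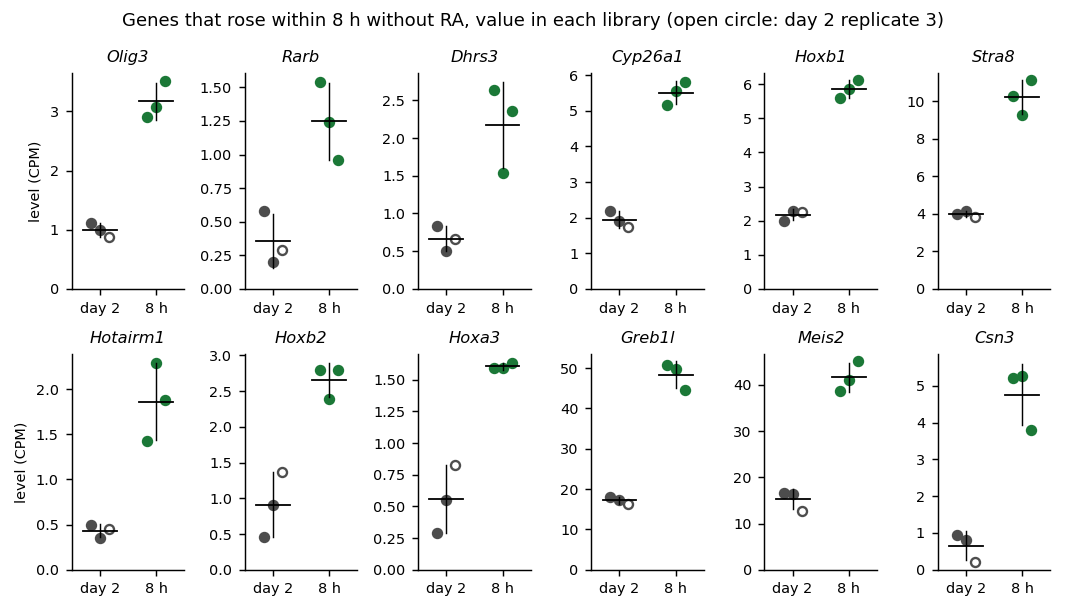
Level in CPM (y axis, from 0) of 12 genes that were called up, in each library of day 2 (grey) and 8 h (green). The open circle is day 2 replicate 3, horizontal lines are means and vertical lines 1 SD over 3 libraries. In every panel the 3 green points lie above the 3 grey ones, and the open circle lies with the other day 2 libraries, also for Hoxb2 and Hoxa3, where it is the highest of them.

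The 8 h libraries with RA give the scale of these levels. Cyp26a1 was at 5.51 ± 0.335 CPM (SD, n = 3) without RA and at 265, 249 and 182 CPM with it. Stra8 was at 10.2 ± 0.912 CPM without RA and at 268, 262 and 118 CPM with it. The RA-treated replicate 3 was lowest for both of these, and it also stood apart in Xist, with 4.09 CPM against 156 and 211 CPM in the other RA-treated replicates. Its mean over 4 Y-linked genes was 3.65 CPM against 78.6 and 89.5 CPM in those replicates, and the part of this difference in the RA values was not tested. The untreated 8 h libraries are common to this pair of groups and to the comparison with day 2, so the values are set side by side. RA called 1.26% of 15836 tested genes up at 8 h and 0.537% down.

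At 18 h the RA effect can be read from libraries that took no part in the comparison of 8 h with day 2. RA called 8.17% of 16508 tested genes up and 2.76% down at 18 h. Of the 64 genes called up over the first 8 h without RA, 33 (51.6%) were called up by RA at 18 h and 3 were called down, with a median log2 difference of 1.10. These 64 include the 14 genes that could enter the first test through their 8 h reads alone, and their part in this share was not tested. Of the 28 genes called down, 9 (32.1%) were called down by RA at 18 h and 1 was called up, with a median of -0.77. Cyp26a1 (6.63 on the log2 scale), Stra8 (6.5) and Rarb (5.87) were the rises with the largest difference under RA. The genes that went the other way were Spon1 (-2.39), which encodes a matrix protein of the floor plate, Tmem88b (-2.05) and Fam131b (-1.27), all higher at 8 h without RA and lower with RA at 18 h. Among the falls, Mras, a small GTPase of the Ras family, was higher with RA at 18 h (1.44).

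**Figure D3:**
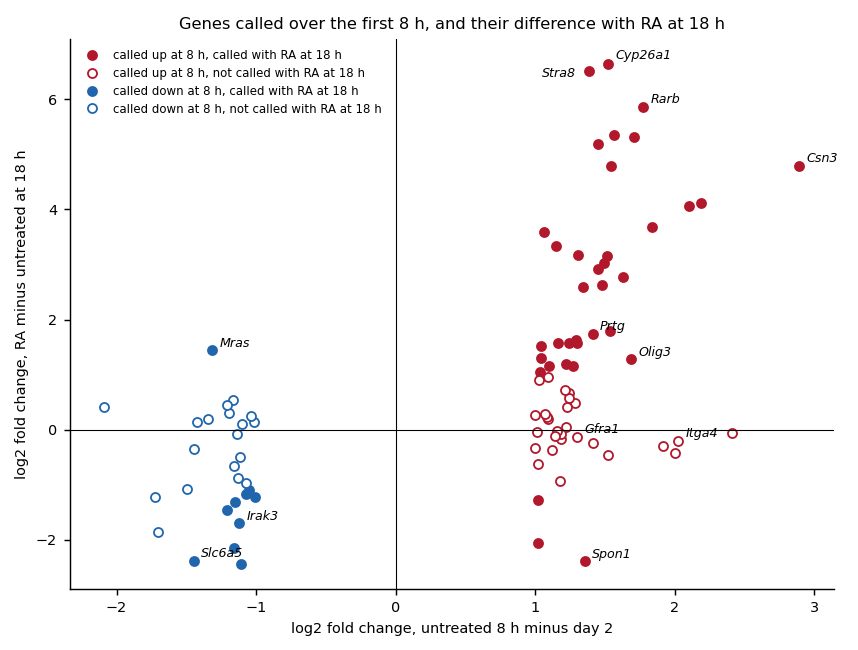
The 92 called genes by their log2 fold change from day 2 to 8 h without RA (x axis) and their log2 difference between RA-treated and untreated organoids at 18 h (y axis), 3 libraries per group. Red genes rose and blue genes fell over the first 8 h, and filled points were also called for RA at 18 h. Of the 64 red points 33 are filled above 0 and 3 below, and of the 28 blue points 9 are filled below 0 and 1 above.

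Csn3, which encodes the milk protein kappa-casein (chromosome 5, 87925579 to 87932665, plus strand), had the largest rise, from 0.953, 0.799 and 0.208 CPM to 5.21, 5.27 and 3.80 CPM (log2 fold change 2.89 ± 0.32, adjusted p = 3.2e-05), and it differed by 4.79 under RA at 18 h. Other large rises were not called with RA at 18 h. Itga4, an integrin subunit for fibronectin and cell adhesion, had 0.663, 1.10 and 0.789 CPM at day 2 and 3.95, 3.28 and 2.94 CPM at 8 h (log2 fold change 2.03 ± 0.25, adjusted p = 7.7e-05) and differed by -0.20 under RA at 18 h (adjusted p = 0.38). Gfra1, a co-receptor for the growth factor GDNF and named after its values were seen, went from 21.1, 22.4 and 22.0 CPM to 54.0, 52.8 and 51.5 CPM (log2 fold change 1.3 ± 0.07, adjusted p = 2.7e-08) and differed by -0.13 under RA (adjusted p = 0.097). For both genes the groups lay far apart relative to the spread within them.

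Among called genes the largest rises in CPM were those of Prtg, Xist, Kif1a, Wnt8a and Btbd17. Prtg, a cell surface protein of the early neural tube, had 46.8, 47.5 and 48.7 CPM at day 2 and 135, 124 and 116 CPM at 8 h (log2 fold change 1.41 ± 0.07, adjusted p = 2.7e-08). The ligand Wnt8a had 35.5, 29.2 and 32.0 CPM at day 2 and 68.2, 65.7 and 68.3 CPM at 8 h (log2 fold change 1.08 ± 0.07, adjusted p = 4.1e-07). Kif1a, a motor protein of axonal transport, rose by 1.00 ± 0.08 (adjusted p = 1.7e-06), close to the threshold, and it was not called in 8 of 10 alternatives or in 3 of the 6 fits with a library left out. Xist, the non-coding RNA that silences an X chromosome, had 70.4, 69.5 and 91.6 CPM at day 2 and 189, 165 and 130 CPM at 8 h (log2 fold change 1.09 ± 0.13, adjusted p = 4.3e-05). Its exons overlap those of Tsix on the opposite strand, which had a log2 fold change of -0.27 (adjusted p = 0.064). At 18 h Xist was lower again, at 70.6, 121.5 and 76.7 CPM (log2 fold change from 8 h -0.87 ± 0.17, edgeR adjusted p = 0.0033). The mean over 4 Y-linked genes was between 67.9 and 80.4 CPM in the 6 libraries of day 2 and 8 h.

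Among called falls with a mean of at least 1 CPM and an established gene symbol, the largest were those of genes at low level. Pkd1l2, of the polycystin family, had 1.86, 1.70 and 1.91 CPM at day 2 and 0.494, 0.696 and 0.433 CPM at 8 h (log2 fold change -1.72 ± 0.30, adjusted p = 0.0012). R3hdml, Slc6a5 (a glycine transporter) and Tlr5 (the receptor of bacterial flagellin) fell by 1.49, 1.44 and 1.42 on the log2 scale. For Slc6a5, day 2 replicate 3 had 1.37 CPM against 3.03 and 2.95 CPM in the other day 2 libraries. Platr26, Mras, Catip, Napsa and Ldlrad4 were the next falls, from -1.35 to -1.16 on the log2 scale.

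Among called genes, the falls with the largest CPM difference included those of the kinase-like gene Irak3 and the transcription regulators Klf4 and Id3. Irak3, of the interleukin-1 receptor pathway, had 29.8, 28.2 and 25.8 CPM at day 2 and 12, 12.6 and 13.3 CPM at 8 h (log2 fold change -1.12 ± 0.08, adjusted p = 8.5e-07). Tcl1, a coactivator of Akt that is high in naive ES cells, had 18.6, 17.8 and 16.2 CPM at day 2 and 7.02, 7.70 and 9.81 CPM at 8 h (log2 fold change -1.07 ± 0.11, adjusted p = 1.7e-05). In each of these genes the highest 8 h library stayed well below the lowest day 2 library.

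Naive pluripotency factors fell together. Of the 20 genes, all tested, 17 passed as lower (85%, against 8% of all genes), 1 passed as higher, and the median log2 fold change was -0.60. Klf4 had 18.5, 19.5 and 21.7 CPM at day 2 and 8.84, 8.99 and 8.95 CPM at 8 h (log2 fold change -1.14 ± 0.10, adjusted p = 2.3e-06). Klf4 and Tcl1 were called, and no other member reached the fold of a call. Zfp42 fell by 0.64, Tdh by 0.47 and Fgf4 by 0.20, whereas Dppa5a had a log2 fold change of -0.01 (adjusted p = 0.97). Fgf4 did not pass in 4 of the 6 fits with a library left out. Of the factors named after their values were seen, Esrrb went from 191, 184 and 176 CPM to 95.2, 116 and 107 CPM (-0.77 ± 0.07, adjusted p = 2.3e-06), and Nanog fell by 0.38. The member that rose was Gbx2, with 22.3, 23.3 and 26.7 CPM at day 2 and 40.8, 42.8 and 42.5 CPM at 8 h. In 1 fit of all 45 libraries, which estimates the spread over later and more varied samples as well, 10 members passed as lower, and 7 with the library series as a term.

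The general pluripotency factors moved less. Of 12, 8 (66.7%, against 8% of all genes) passed as lower and 1 (8.33%, against 8.12%) as higher, with a median of -0.21. Pou5f1 (Oct4) had a mean of 984 CPM at day 2 and 843 CPM at 8 h (-0.20 ± 0.06, adjusted p = 0.0393), but -0.13 (adjusted p = 0.127) without day 2 replicate 3, and it did not pass in 4 of the 6 fits with a library left out. Trim71 fell by 0.25, while the RNA-binding Lin28a rose by 0.23. Under library totals 5 members passed as lower, and in a fit of all 45 libraries 1 did. The LIF and STAT3 list holds receptor genes of LIF, the cytokine that sustains naive cells, together with response genes. Of these, Klf4 is also on the list of naive factors. In it 6 of 13 (46.2%, against 8% of all genes) passed as lower, Klf4 among them. There 1 (7.69%, against 8.12%) passed as higher, Fosl2, which did not pass in 4 of the 6 fits with a library left out. The LIF receptor gene Lifr went from a mean of 105 CPM to 60.2 CPM (-0.77 ± 0.06, adjusted p = 1.3e-06), and its partner Il6st fell by 0.40.

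Formative and primed epiblast genes went both ways. Of 20, 9 (45%, against 8.12% of all genes) passed as higher and 4 (20%, against 8%) as lower, with a median of 0.14. In 1 fit of all 45 libraries 1 passed as higher. Pim2 rose by 0.40, Fgf5 by 0.39 and Pou3f1 by 0.33. Dnmt3l, the cofactor of the de novo DNA methyltransferases, fell by 0.56, and Otx2 by 0.18, while Dnmt3b had a log2 fold change of 0.04 (adjusted p = 0.63). Otx2 did not pass in 4 of the 6 fits with a library left out. Of the 23 neural plate genes, 14 were tested. Of these 5 (35.7%) passed as higher and 1 (7.14%) as lower (2 and none in the fit of all 45 libraries). Olig3, a factor of dorsal neural tube progenitors, was called, with 1.12, 0.999 and 0.872 CPM at day 2 and 2.91, 3.08 and 3.51 CPM at 8 h (1.69 ± 0.22, adjusted p = 0.00012). The cell adhesion gene Cdh2 (N-cadherin) rose by 0.73, Sox3 by 0.51 and Nes (nestin) by 0.40. Pax6 had a log2 fold change of 0.05 (adjusted p = 0.72) and -0.013 without day 2 replicate 3. Sox1, the earliest definite neural marker, was at 2.53, 1.75 and 2.03 CPM at day 2 and 1.15, 1.94 and 1.93 CPM at 8 h (-0.31, adjusted p = 0.442).

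**Figure D4:**
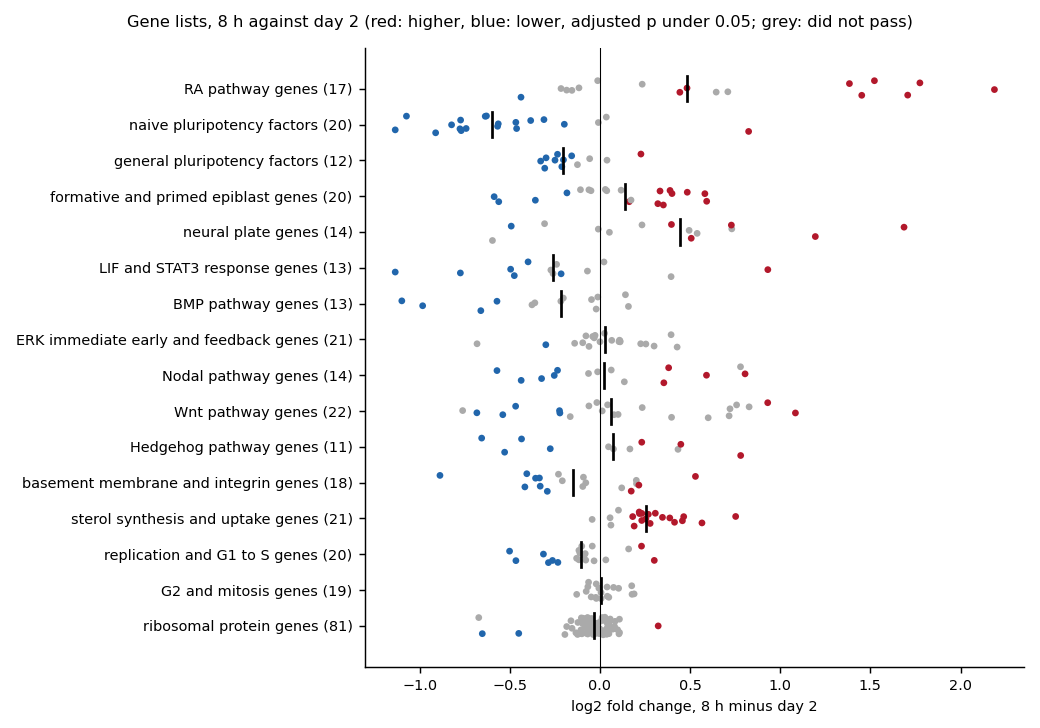
Log2 fold change from day 2 to 8 h (x axis) of each tested member of 16 gene lists (y axis, number tested in brackets). Red members passed as higher and blue members as lower at an adjusted p under 0.05, grey members did not pass, and black bars are medians. The naive pluripotency factors lie mostly below 0 and the sterol genes mostly above, while the ribosomal protein genes cluster at 0.

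In the BMP pathway 4 of 13 tested genes (30.8%, against 8% of all genes) passed as lower and none as higher. Id3, an inhibitor of basic helix-loop-helix factors and a direct BMP target, had 39.8, 40.2 and 44.5 CPM at day 2 and 17.8, 17.7 and 21.7 CPM at 8 h (-1.10 ± 0.08, adjusted p = 1.3e-06). Id1 had 23.9, 23.7 and 27 CPM at day 2 and 11.2, 12.6 and 13.3 CPM at 8 h (-0.98 ± 0.09, adjusted p = 5.3e-06), and the ligand gene Bmp4 fell by 0.66. Id2 had a log2 fold change of -0.05 (adjusted p = 0.76), so the Id genes did not move alike. With the library series as a term in a fit of all 45 libraries 1 of the 13 passed. The ERK immediate early and feedback genes, read-outs of FGF signalling, gave 1 lower (Etv5, -0.30) and none higher of 21 tested. That is 4.76% lower, under the 8% of all genes. Dusp6 and Spry2 had log2 fold changes of 0.11 and 0.03, with adjusted p-values of 0.233 and 0.793.

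Nodal pathway genes split, with 4 higher (28.6%, against 8.12% of all genes) and 5 lower (35.7%, against 8%) of 14. In the fit of all 45 libraries none and 2 passed. Nodal itself fell by 0.32 and Tdgf1, its co-receptor, by 0.24, while the antagonist Fst rose by 0.59 and the feedback inhibitor Lefty1 by 0.80. Tdgf1 did not pass in 3 of the 6 fits with a library left out. In the Hedgehog list the targets Gli1 and Ptch1 fell by 0.53 and 0.28, and the transducer Smo rose by 0.45. Of the 11 tested, 3 (27.3%) were higher and 4 (36.4%) lower (2 and 2 in the fit of all 45 libraries). Of 22 Wnt pathway genes 2 passed as higher (the called ligand Wnt8a and Nkd2), a share near the 8.12% of all genes, and 5 as lower, among them the repressor Tcf7l1 (-0.47), while 1 was lower in the fit of all 45 libraries. Of the LPA pathway, Enpp2, which encodes the enzyme that makes lysophosphatidic acid, had a log2 fold change of -0.05 (adjusted p = 0.68). Of the 9 tested genes of that list 1 (11.1%, against 8.12% of all genes) passed as higher, the receptor gene Lpar4 (0.57). As lower 2 passed (22.2%, against 8%), the receptor gene Lpar1 (-0.40) and the phosphatase gene Plpp1 (-0.41). Fst, Lefty1, Smo, Gli1 and Nkd2 were chosen for naming after their values were seen.

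Genes of sterol synthesis and uptake rose in small steps. Of 21, all tested, 17 passed as higher (81%, against 8.12% of all genes) and none as lower, with a median log2 fold change of 0.25. Hmgcs1, an early enzyme of the pathway, had 721, 756 and 679 CPM at day 2 and 971, 952 and 989 CPM at 8 h (0.46 ± 0.05, adjusted p = 3.3e-05). Srebf2, a transcription factor of the pathway, had a log2 fold change of -0.04 (adjusted p = 0.62). Fatty acid synthesis genes gave 4 higher (33.3%) and none lower of 12, but none higher without day 2 replicate 1. Of the sterol genes 12 passed without day 2 replicate 1, and 7 in 1 fit of all 45 libraries.

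Basement membrane and integrin genes gave 7 lower (38.9%, against 8% of all genes) and 3 higher (16.7%, against 8.12%) of 18. In the fit of all 45 libraries 3 and none passed. Nid1, which links laminin to collagen IV, fell from 82.7, 87.7 and 70.2 CPM to 44.0, 45.1 and 38.9 CPM (-0.89 ± 0.08, adjusted p = 6.4e-06), and Fn1, Lamc1 and Nid2 fell by 0.41, 0.36 and 0.29. Of the genes of replication and the G1 to S step 6 (30%, against 8% of all genes) passed as lower and 2 (10%, against 8.12%) as higher of 20, with Mcm5 at -0.23. The 19 genes of G2 and mitosis had log2 fold changes between -0.13 and 0.19, and 2 passed as higher without day 2 replicate 3. Ribosomal protein genes gave 1 higher (1.23%) and 2 lower (2.47%) of 81, and nuclear oxidative phosphorylation genes none higher and 5 lower (6.94%) of 72. The shares of the ribosomal protein and oxidative phosphorylation genes lie under those of all genes. No oxidative phosphorylation gene passed as lower when day 2 replicate 3 was left out. Stmn2, a microtubule regulator of neurons, fell by 0.72, and the summed level of 4 neuron markers went from between 199 and 215 CPM to between 146 and 168 CPM. The streak gene T (brachyury) fell from 9.28, 10 and 11.1 CPM to 5.71, 6.91 and 6.06 CPM (-0.68 ± 0.12, adjusted p = 0.0015).

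The next interval, from 8 h to 18 h without RA, called 87 genes up (0.55%) and 38 down (0.24%) of 15823. It shares the 8 h libraries with the first interval, so a high or low 8 h value enters both with opposite sign, and each gene is given by its own values. A test of the difference between the 2 changes over the 9 libraries found 411 of 16187 genes (2.54%) with unequal change at an adjusted p under 0.01, 214 (1.32%) with the higher change in the second interval and 197 (1.22%) with the lower. That number was 80 in 1 fit of all 45 libraries and 168 to 615 when a library was left out.

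The genes called up at 8 h and down again at 18 h were Csn3, Cyp26a1, Mmp9 and Tmem88b. Cyp26a1 went from 5.51 CPM at 8 h to 2.26, 2.89 and 3.09 CPM at 18 h (log2 fold change -1.01 ± 0.15, adjusted p = 0.00052). Csn3 went from 4.76 CPM to 1.67, 1.77 and 1.17 CPM (-1.68 ± 0.21, adjusted p = 0.00013). Tmem88b was at 1.62, 1.10 and 1.37 CPM at day 2, at 2.80, 2.58 and 2.84 CPM at 8 h and at 0.948, 0.990 and 0.960 CPM at 18 h. Its 18 h libraries were thus the lowest of the 9. Mmp9, a gelatinase of the extracellular matrix, had 1.04, 0.600 and 0.415 CPM at day 2 and 1.37, 2.19 and 2.17 CPM at 8 h. Its mean at 18 h was 0.771 CPM. Mmp9 was not called as a rise in 4 of the 6 fits with a library left out (edgeR adjusted p up to 0.042). Like Csn3, it could enter the test of the first 8 h through its 8 h reads alone.

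Stra8, of the RA pathway, fell by 0.85 from 8 h to 18 h on the log2 scale to 5.87 CPM (adjusted p = 0.0026), still above day 2. Meis2 fell by 0.54 to 29.0 CPM. Prtg, in contrast, went on from 125 to 184 CPM (0.54 ± 0.07, adjusted p = 0.00011), with a smaller step than over the first 8 h (difference -0.86 ± 0.11, adjusted p = 0.00014). Vldlr, a lipoprotein and reelin receptor, went from 2.80 to 6.69 and 14.2 CPM in steps of 1.28 and 1.06 on the log2 scale that were not shown to differ (difference -0.22 ± 0.21, adjusted p = 0.60). Klf4 rose again by 0.50 to 12.8 CPM (adjusted p = 0.0013), while Id3 stayed near its 8 h level at 16.9 CPM (-0.20, adjusted p = 0.15). Sox1 rose from 1.67 CPM at 8 h to 5.34 CPM at 18 h (1.65 ± 0.19, adjusted p = 6.2e-05).

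**Figure D5:**
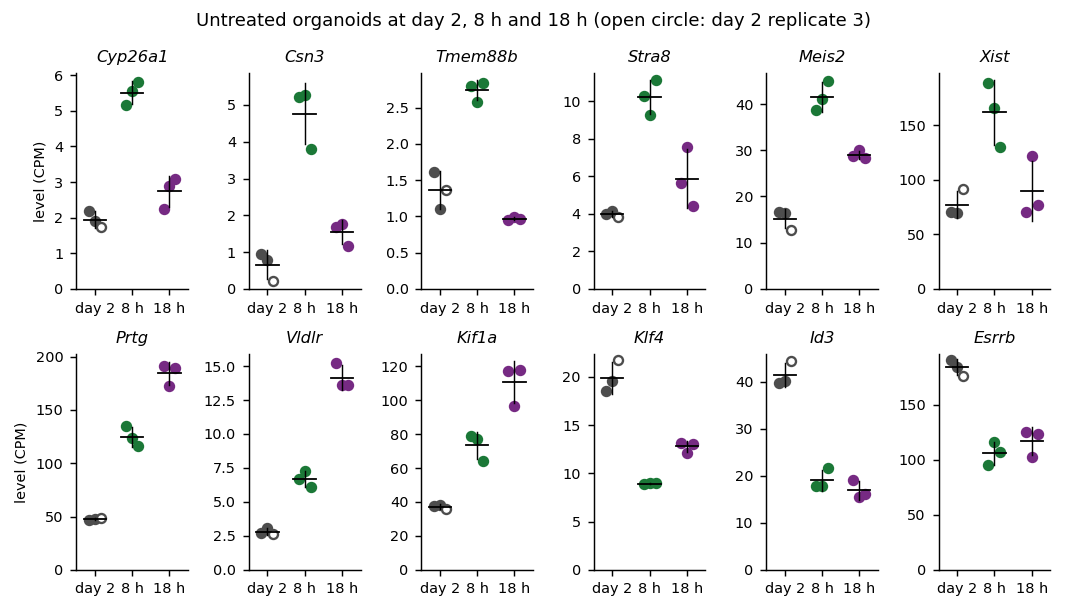
Level in CPM (y axis, from 0) of 12 genes in each untreated library at day 2 (grey, open circle for replicate 3), 8 h (green) and 18 h (purple), with means and 1 SD over 3 libraries. Cyp26a1, Csn3 and Tmem88b peak at 8 h, Prtg, Vldlr and Kif1a climb through 18 h, and Klf4, Id3 and Esrrb stay below their day 2 levels.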

How the data were processed

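RNA-seq libraries of poly(A) RNA were made with a directional kit and sequenced as single-end reads. The authors trimmed the reads (Trim Galore 0.5.0), filtered them with Bowtie2 2.3.4.1, aligned them with STAR to GRCm38 with an Ensembl annotation, and deposited raw counts per gene made with featureCounts (Subread 1.6.2). The strand and multimapping settings are not given in the sources used here, so genes that overlap on opposite strands may share reads. Of the 92 called genes, 26 share an exon with a gene on the opposite strand, among them Rarb, Itga4, Hoxb2 and Hoxa3. The deposited table holds 54532 genes and 45 libraries in 15 groups.

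Counts of the 6 libraries were fitted with edgeR 4.0.16 in R 4.3.3 (TMM scaling, filterByExpr with a minimum count of 10, quasi-likelihood test, two-sided, Benjamini-Hochberg adjustment). SE is the log2 fold change divided by the root of the F statistic. CPM were scaled by TMM over all 45 libraries, and they are not per gene length, so they do not rank the levels of different genes. The labels give biological replicates, with nothing on separate cultures, so p-values measure the spread between these libraries. On simulated data 93% of genes changed 4-fold were called for 8 h against day 2 and 58% of those changed 1.5-fold passed, over 15403 genes. Groups followed the labels. Alternatives were DESeq2 1.42.0, limma 3.58.1 (voom), other scaling, no count filter, a replicate block, fits of all 45 libraries and each library left out. Positions are from GENCODE M21 and promoters from RefSeq.

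Libraries were identified by their labels, but the comparison they form and the gene lists were chosen with earlier results of these data known. Called genes that do not overlap between groups, have a mean of at least 1 CPM and an established symbol were ranked by log2 fold change. Genes were named from their 10 largest rises and falls, not all of which are given. They were also named from the 5 called genes of each direction with the largest CPM difference and from genes called in opposite directions by 18 h. From each list, the called and the 4 most abundant other members could be named. Other genes were named after their values were seen. Some members of the lists are counted but their own values are not reported here.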

Additional observations from a re-analysis of the deposited data

Results flagged for a closer look

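The change from 8 h to 18 h differed from the change from day 2 to 8 h for 411 of 16187 genes (2.54%), by edgeR's test of the difference between both changes at an adjusted p under 0.01. Of these, 214 had the higher log2 change in the second interval and 197 the lower one. The untreated 8 h libraries enter both changes with opposite sign, so an 8 h value that is off by chance adds to the difference. In 1 fit of all 45 libraries 80 genes met the threshold, and 87 with the library series as a term. Leaving out 1 library gave 168 (untreated 8 h replicate 2), 171 (untreated 8 h replicate 1), 205 (untreated 8 h replicate 3), 234 (untreated 18 h replicate 3) and up to 615 (untreated 18 h replicate 2).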

How the results depend on the processing

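For 8 h against day 2, 64 genes were called up and 28 down. Leaving out 1 library gave 38 to 88 up and 12 to 31 down. A test against a log2 fold change of 1 gave 3 up and 0 down with edgeR (54 and 16 at an unadjusted p under 0.05), and an adjusted p under 0.05 alone 1270 and 1251. With no count filter 49 were called down, and in 1 fit of all 45 libraries 16, or 14 with the library series as a term. For 18 h against 8 h, with 87 up and 38 down, leaving out 1 library gave 52 to 106 and 21 to 59. The lowest count up was without untreated 18 h replicate 3, and the lowest and highest counts down were without untreated 8 h replicate 3 and untreated 18 h replicate 2. No filter gave 146 and 63, the test against a fold 0 and 0 (57 and 30 at an unadjusted p under 0.05), and the adjusted p alone 1907 and 1738. DESeq2 called 25 down, and the fits of all 45 libraries 13 and 14. Unequal change, 411 genes, became 804 with no filter, 80 and 87 in the fits of all 45 libraries, 1028 at an adjusted p under 0.05, and 168 to 615 with 1 library left out. The causes were not tested, apart from the stricter or looser construction of the fold test and the adjusted p rule.

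Same-numbered libraries did not deviate together (r = -0.060, 0.046 and 0.068), so the numbers were not taken as pairs. A replicate block gave 56 up and 23 down at 8 h, 76 and 34 from 8 h to 18 h, and 322 genes with unequal change. Of the genes called at 8 h, 26 of 64 and 8 of 28 stayed called whichever library was left out. Of 316 genes followed under the alternatives, none of the 304 that passed reversed in sign. Pax6, which did not pass, reversed, at -0.0061 in the fit of all 45 libraries with the library series and -0.013 without day 2 replicate 3 (0.084 at most with 1 library left out). The median of all genes moved between -0.0009 and 0.0201 on the log2 scale under other scalings. Depth limits genes under about 0.454 CPM, which were not tested.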

Other observations

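The shares of all genes that passed were 8.12% as higher and 8% as lower over the first 8 h. In the amino acid and integrated stress response list 7 of 22 genes (31.8%) passed as higher and 4 (18.2%) as lower. In the hypoxia response list 5 of 16 tested (31.2%) passed as higher and 1 (6.25%) as lower. The higher hypoxia genes were 2 at the lowest with a library left out, and 1 at the lowest under the other alternatives. Of 19 glycolysis genes 1 (5.26%) passed as higher and 3 (15.8%) as lower. Of 21 tested imprinted genes 4 (19%) passed as higher and 1 (4.76%) as lower. In the Notch list 1 of 14 (7.14%) passed as higher and 3 (21.4%) as lower.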
